A study of Mus musculus with 2 samples.

Results

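The cells described here are the ependymal cells and astrocytes of the mouse spinal cord, chosen from 2 droplet single-cell RNA libraries by the UMIs of 6 genes. A UMI (unique molecular identifier) stands for 1 captured RNA molecule. A cell barcode was a member when it held at least 1000 UMIs, and at least 3 UMIs and 5 per 10,000 UMIs summed over the astrocyte genes Aqp4 and Agt and the ependymal genes Foxj1, Ccdc153, Tmem212 and Dynlrb2. Barcodes with Mag, Mog and Mobp at 40 or more, C1qa, C1qb and C1qc at 20 or more, or Cldn5 at 10 or more per 10,000 were left out as oligodendrocytes, phagocytes or endothelial cells. The rule found 58 members among 23732 barcodes, of which 22637 held at least 1000 UMIs: 27 members in the sham library and 31 in the library taken 3 days post injury (3 dpi).

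Each library pooled 5 male and 5 female C57BL/6 mice aged 8 weeks, and no genotype, transgene or drug is named in the labels. The tissue was an 8 mm length of cord around the injury site, digested to single cells. What injury was made is not stated there. With 1 library per group there is no replicate, so no test and no p-value is given: levels carry exact 95% intervals that cover counting error only, leaving out the spread between animals, cells and libraries.

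Ependymal cells line the central canal and carry motile cilia, which are built on an axoneme of microtubules, dynein motors and radial spokes under the transcription factors Foxj1 and the RFX family. Astrocytes clear glutamate and potassium from around synapses, are joined by connexin gap junctions and cover blood vessels with endfeet rich in the water channel Aqp4. After cord injury both cell types are known to raise the intermediate filament proteins vimentin and, in astrocytes, GFAP, a state called reactive, and astrocytes near a lesion divide.

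Many axoneme genes are known targets of RFX factors, which bind a pair of half-sites called the X-box. One half-site, GTTGCC, was looked for on both strands (GGCAAC on the other) in the 250 bases before the start of each gene in the RefSeq promoter table of build GRCm38.p6. It stood in 10.43% of all promoters (3425 of 32851), in 32.7% of those of the ciliary axoneme list (17 of 52 promoters, for 45 genes that were found) and in 2.94% of those of the astrocyte reactivity list (1 of 34). Of the 31 promoters of axoneme genes that stood lower at 3 dpi in ependymal members, 32.3% held it, close to the share of the whole list. A match is a stretch of letters and does not show that a factor binds there. The 160 bases before the start are shown for 4 ependymal genes described below, 5′ to 3′ on the gene's own strand, with the half-site in capitals. These genes stood lower at 3 dpi, and only promoters that held the half-site were shown. Its presence in all 4 was therefore set by the choice.
Ccdc153 (chr9:44240517-44240676, plus strand): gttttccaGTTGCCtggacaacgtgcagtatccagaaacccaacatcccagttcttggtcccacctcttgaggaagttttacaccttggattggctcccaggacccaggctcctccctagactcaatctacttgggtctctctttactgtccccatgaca
Dynlrb2 (chr8:116504855-116505014, plus strand): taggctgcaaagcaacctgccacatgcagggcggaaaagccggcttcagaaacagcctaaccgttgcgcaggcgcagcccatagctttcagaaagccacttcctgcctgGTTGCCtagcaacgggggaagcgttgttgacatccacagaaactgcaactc
Fam183b (chr11:58801961-58802120, minus strand): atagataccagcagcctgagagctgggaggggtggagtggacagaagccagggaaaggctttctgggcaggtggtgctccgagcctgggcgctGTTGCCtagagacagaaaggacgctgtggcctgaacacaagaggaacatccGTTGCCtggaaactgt
Enkur (chr2:21205366-21205525, minus strand): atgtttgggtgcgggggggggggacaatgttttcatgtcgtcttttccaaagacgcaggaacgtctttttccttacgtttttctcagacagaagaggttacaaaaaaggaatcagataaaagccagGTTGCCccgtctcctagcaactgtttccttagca
Counted back from the start, the half-site began at base 152 in Ccdc153, 51 in Dynlrb2, 67 and 16 in Fam183b and 34 in Enkur.

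Members were divided by the same 6 genes. A member was ependymal-side when its UMIs of Foxj1, Ccdc153, Tmem212 and Dynlrb2 exceeded those of Aqp4 and Agt, and astrocyte-side when they were fewer, and 0 members were tied. The sham library held 19 ependymal-side and 8 astrocyte-side members, and the 3 dpi library 11 and 20. The members made up 0.273% [0.180 to 0.397] of sham and 0.243% [0.165 to 0.345] of 3 dpi barcodes of at least 1000 UMIs (Clopper-Pearson). The ratio of the shares, 3 dpi over sham, was 0.892 [0.515 to 1.55] for all members, 0.450 [0.193 to 0.994] for the ependymal side and 1.94 [0.819 to 5.10] for the astrocyte side. Counting error therefore reached past equal shares for all members and for the astrocyte side, and to just under them for the ependymal side. These are shares of captured barcodes, in libraries whose other cells changed too: phagocytes defined by the C1q genes numbered 2229 in sham and 5726 at 3 dpi.

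The UMI density over the 6 genes was lower at 3 dpi, where the median member held 18.4 per 10,000 against 63.4 in sham. In sham the member nearest the threshold stood at 22.1 per 10,000 and 0 barcodes lay between 3 and 5. At 3 dpi the members nearest the threshold stood at 5.26, 5.29 and 5.86 and the nearest barcode outside at 4.795, with 11 barcodes between 3 and 5. Of those 11, 10 held at least 20 per 10,000 of astrocyte and ependymal markers that the rule did not use, as did 27 of 27 sham and 30 of 31 3 dpi members. The threshold thus ran through a continuous range of barcodes at 3 dpi only. The bars on other cells' genes left out 15 barcodes in sham (9 for oligodendrocyte, 5 for C1q and 3 for Cldn5 genes, some for more than 1) and 3 at 3 dpi (all for C1q).

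Depth differed between the groups. Ependymal-side members held 1095 to 50755 UMIs in sham (median 11828) and 2446 to 29332 at 3 dpi (median 10533). Astrocyte-side members held 1278 to 11309 in sham (median 2058) and 1150 to 32636 at 3 dpi (median 10672.5). Summed over members, the ependymal side held 341630 and 133765 UMIs and the astrocyte side 24943 and 246240, so 1 UMI was worth 2.93 and 7.48 UMIs per 1000000 (CPM) on the ependymal side and 40.1 and 4.06 CPM on the astrocyte side. Of all barcodes, 39 sequences occurred in both libraries, and 0 of these were members. By UMIs of Xist and of Y-linked genes, members came from both sexes on both sides of both libraries. In sham 4 members held UMIs of both Xist and Y-linked genes, against 0 at 3 dpi. Of these 4, 3 were ependymal-side, held 39559, 29405 and 11828 UMIs and were not called doublets.

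Summed over members, markers that the rule did not use were high in the members named for them. The 16 ependymal markers summed to 9399 CPM in sham ependymal-side members against 620 CPM in other barcodes, and to 4396 against 102 CPM at 3 dpi, where 15 of the 16 had a UMI. The 16 astrocyte markers summed to 16478 CPM in sham astrocyte-side members against 372 CPM in other barcodes, and to 9609 against 199 CPM at 3 dpi. Ependymal markers were low in sham astrocyte-side members, at 120 CPM against 620 CPM in other barcodes, with 14 of 16 at 0. At 3 dpi they stood at 370 CPM, above the 102 CPM of other barcodes. There 6 of 16 markers had a UMI, as did 16 of 20 members. Astrocyte markers were not missing from ependymal-side members: they summed to 2216 CPM in sham and 3671 CPM at 3 dpi, with Sox9, a transcription factor of both cell types, among them. Beyond markers, 21.6% of 8591 genes in sham and 18.1% of 7834 at 3 dpi stood at least 2-fold higher in members than in other barcodes. In sham the 15 leading genes included the ciliary genes Zfp474 (rank 1, 109 CPM), Ak9 (rank 3, 95.5 CPM) and Pifo (rank 12, 322 CPM). Other genes ranked between them, such as Lhb (rank 2) and Gm29538 (rank 4). The astrocyte side in sham was led, after the selecting genes, by the amino acid transporter Slc7a10, the phospholipase Pla2g7, the GABA transporter Slc6a11, the neurotensin receptor Ntsr2 and the claudin Cldn10.

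In 5 members the markers of another class, with the smooth muscle gene Tagln set aside, stood above the astrocyte and ependymal markers. On the astrocyte side, 1 sham member of 11309 UMIs carried oligodendrocyte markers at 568 per 10,000 against 73.4 of its own and gave 45.3% of that side's sham UMIs. At 3 dpi 1 member of 32636 UMIs carried oligodendrocyte markers (112 per 10,000, own 87.6), 1 of 13482 UMIs fibroblast markers (280, own 5.93) and 1 of 7984 UMIs pericyte markers (63.9, own 43.8). The sham member and the first of these 3 dpi members were called doublets. The astrocyte side is therefore given also without these 4, leaving 7 sham and 17 3 dpi members, called here the astrocyte-led members, which hold 13634 and 192138 UMIs. The remaining such member was ependymal-side in sham, with 19157 UMIs, 5.61% of that side's, and oligodendrocyte markers at 213 against 99.7 per 10,000. Tagln was set aside from the pericyte markers after its level was seen. With Tagln counted 7 members were led by another class. The 2 added are 3 dpi astrocyte-led members of 30695 and 20804 UMIs, with pericyte markers at 106.5 and 76.4 per 10,000 against 95.1 and 60.1 of their own, and at 1.63 and 0.481 without Tagln. They hold 26.8% of the 3 dpi UMIs of the astrocyte-led members, and values without them are given where they differ most. A further astrocyte-led member at 3 dpi, of 11027 UMIs, was also called a doublet and was kept. It carried monocyte or macrophage markers at 81.6 per 10,000 against 97.0 of astrocyte markers.

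The other classes' markers were low in most members. The 10 oligodendrocyte markers summed to 3278 CPM in sham and 479 CPM at 3 dpi on the ependymal side, and to 3081 and 510 CPM in the astrocyte-led members, against 48303 and 7333 CPM in other barcodes of each library. Lists of 10 microglia, endothelial and fibroblast markers stood at 763, 44.9 and 97.2 CPM in ependymal-side and 318, 15.6 and 307 CPM in astrocyte-led members at 3 dpi, against 2469, 344 and 1802 CPM in other barcodes. The monocyte or macrophage list stood at 628 CPM in ependymal-side members at 3 dpi, against 10969 CPM in other barcodes. In the astrocyte-led members that list stood at 0 CPM in sham, where 1 UMI was worth 73.35 CPM and other barcodes held 244.6 CPM. At 3 dpi it stood at 1691.5 CPM, with a UMI in 17 of 17, and part of it was the matrix gene Fn1, described below. The pericyte list stood higher than in other barcodes (229 CPM), at 1308 CPM on the ependymal side and 4970 CPM in the astrocyte-led members, with 4 of 10 genes detected on each, and most of it was Tagln. The neuron list stood at 1308 CPM in ependymal-side members at 3 dpi against 260 CPM in other barcodes. There 3 of 10 genes had a UMI, among them the noncoding RNA Meg3 (680 CPM) and the tubulin-binding Stmn2 (613 CPM), while the synaptic gene Snap25 had 0 UMIs.

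**Figure D1:**
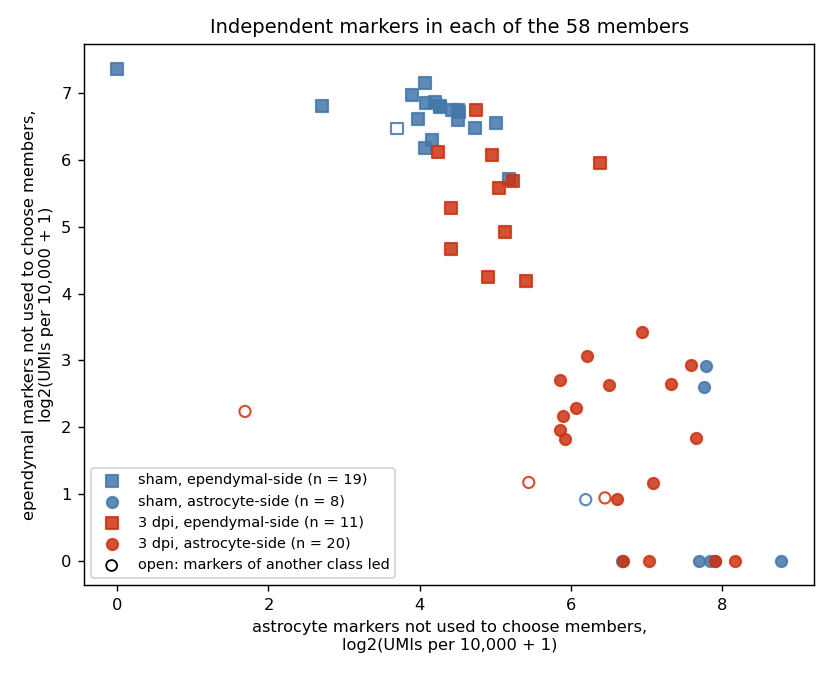
Each point is 1 of the 58 members: the x axis gives the summed astrocyte markers and the y axis the summed ependymal markers that the rule did not use, both as log2 of UMIs per 10,000 plus 1, with squares for the ependymal side and circles for the astrocyte side. The 19 sham ependymal-side members lie at the top, the 11 of 3 dpi lower and further right, the astrocyte-side members at the bottom right, and open symbols mark the 5 members in which markers of another class led.

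Levels were compared between libraries by the log2 ratio of CPM at 3 dpi to that in sham, after 10 CPM were added, which understates the change of low genes, and a gene was called higher or lower from a 2-fold difference. Over all members, 12.2% of 8344 genes at 20 CPM or more were called higher and 18.2% lower. That pooled comparison sets 19 ependymal-side and 8 astrocyte-side members against 11 and 20, so the results below are given within each side. Neither side held 30 members in both libraries, the number set for such a comparison, and the filter used in its place, a level that gives 10 UMIs in the smaller sum, was chosen after the data were seen. On the ependymal side (3212 genes at 74.8 CPM or more) 9.43% were called higher and 16.8% lower, with a median log2 ratio over all genes of -0.14. Since a gene can pass that filter through the library where it is high, gene lists are counted over all of their genes with a UMI in either library. Of the 13401 such genes on the ependymal side, 7.37% were called higher and 13.8% lower, with a median log2 ratio of -0.25.

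Ependymal-side members at 3 dpi had less RNA of many ciliary genes. The ciliogenesis regulator Foxj1 stood at 776 CPM in sham and 591 CPM at 3 dpi (log2 ratio -0.39), with 0, 6.92 and 19.8 UMIs per 10,000 in the lowest, median and highest sham member and 1.32, 5.55 and 10.2 at 3 dpi. The members of the libraries overlapped over nearly the whole range. Ccdc153, a coiled-coil protein of cilia, stood at 2555 CPM in sham and 217 CPM at 3 dpi, 11.8-fold lower. Its sham members ranged from 5.07 to 59.3 per 10,000 (median 26.9) and those of 3 dpi from 0 to 20.7 (median 0.949). All 19 sham members and 6 of 11 at 3 dpi had a UMI of it. The membrane protein gene Tmem212 (1443 and 329 CPM, 4.39-fold lower) and the dynein light chain gene Dynlrb2 (808 and 344 CPM, 2.35-fold lower) stood lower too. These 4 genes chose the members, so their values are a description of the chosen barcodes: a barcode that had lost Foxj1 along with the other 3 could not be an ependymal-side member.

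The axoneme list, which holds none of those 4, pointed the same way. Of its 52 genes, all with a UMI, 30 were lower and 0 higher (median log2 ratio -1.08), against 13.8% of all genes lower. Rsph1, a radial spoke protein, stood at 1235 CPM in sham and 389 CPM at 3 dpi, 3.18-fold lower (ratio of 3 dpi to sham 0.315 [0.231 to 0.420]). Its members ranged from 7.49 to 36.5 per 10,000 in sham (median 11.9) and from 0.438 to 7.61 at 3 dpi (median 4.83).
Groups overlapped in Rsph1 only where the highest 3 dpi members met the lowest in sham. The axoneme genes Enkur (436 and 105 CPM, 4.17-fold lower), 1110017D15Rik (1077 and 448.5 CPM, 2.40-fold lower), Fam183b (820 and 359 CPM, 2.28-fold lower) and Ak7 (542 and 232 CPM, 2.34-fold lower) were among the 30. The axonemal dynein gene Dnah12 was lower as well, at 231 and 89.7 CPM, or 2.58-fold.

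Of the axoneme genes within 2-fold, Tppp3, a tubulin-binding protein, stood higher at 3 dpi (705 and 1368 CPM, log2 ratio 0.95), while Tekt1 (316 and 202 CPM) and Meig1 (304 and 239 CPM) stood slightly lower. Summed over the axoneme list, sham members held 121 to 297 UMIs per 10,000 (median 188) and 3 dpi members 31.1 to 235 (median 96.2). Of 18 regulators of ciliogenesis, 5 were lower and 0 higher (median -0.65), against 13.8% of all genes lower. Those at 74.8 CPM or more were the transcription factor Myb (117 and 52.3 CPM) and the intraflagellar transport gene Ift88 (140.5 and 52.3 CPM). The X-box factors Rfx3 (143 and 82.2 CPM) and Rfx4 (126 and 97.2 CPM) lay within 2-fold. Because the rule asked for UMIs of ciliary genes, barcodes in which these were lower still would not be members.

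Ependymal-side members at 3 dpi differed widely in ciliary RNA; the division that follows was made after their values were seen. In 5 of the 11, UMIs of Ccdc153 and Tmem212 were both 0, against 0 of 19 in sham. These 5 held 2446 to 22829 UMIs, and the deepest would hold 58.3 UMIs of Ccdc153 at the sham level. A barcode without those UMIs could be ependymal-side only through Foxj1 and Dynlrb2, so its Foxj1 was set by the rule. The 5 had Foxj1 at 1.32 to 10.2 per 10,000 and the axoneme list at 31.1 to 76.1, below the 121 of the lowest sham member. In the other 6 the axoneme list stood at 96.2 to 235 per 10,000. Vim ranged from 116.5 to 172.5 per 10,000 in the 5 and from 51.8 to 270 in the 6, which overlapped.

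Of 11 genes of the list of ependymal genes that are not ciliary, 7 were higher and 2 lower (median log2 ratio 1.34), against 7.37% and 13.8% of all genes. The 2 lower were Rarres2 and Mia. Rarres2, the precursor of the chemoattractant chemerin, stood at 2128 CPM in sham and 217 CPM at 3 dpi, 9.82-fold lower, with members at 3.46 to 39.2 per 10,000 (median 21.2) in sham and 0 to 7.76 (median 1.54) at 3 dpi. The secreted protein gene Mia stood at 319 and 89.7 CPM, 3.56-fold lower. The membrane protein gene Tm4sf1 stood at 890 and 3484 CPM, 3.92-fold higher [3.38 to 4.54], with members at 6.49 to 20.4 per 10,000 (median 9.18) in sham and 12.9 to 78.8 (median 32.7) at 3 dpi. Its level at 3 dpi was above that of the endothelial group (1879 CPM), the highest of the other marker groups. These groups were oligodendrocytes, phagocytes, endothelial cells, precursors and neutrophils. Pericytes, smooth muscle cells, fibroblasts and monocytes had no group, so levels in them were not compared here or below.

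The surface glycoprotein gene Cd24a stood at 664.5 and 1473 CPM, 2.22-fold higher. Crym, which encodes a thyroid hormone-binding crystallin, had 0 UMIs in sham and 718 CPM at 3 dpi, at least 81.7-fold higher against a floor of 3 UMIs over the sham members, with a UMI in 8 of 11 members. In other marker groups at 3 dpi Crym reached 50.02 CPM at most. The calcium-binding protein gene S100a6 stood at 76.1 and 1562 CPM, 20.5-fold higher, but at 3 dpi oligodendrocytes (1556 CPM) and endothelial cells (1573 CPM) held as much. Nnat, which encodes the membrane proteolipid neuronatin, stood at 5840 and 4104 CPM. In Nnat 1 member held 71.4% of the 3 dpi UMIs, and the median member had 52.1 per 10,000 in sham and 6.17 at 3 dpi.

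Many reactivity genes were higher in ependymal-side members after injury. Of 24 genes of the astrocyte reactivity list with a UMI, 19 were higher and 0 lower (median log2 ratio 1.62), against 7.37% of all genes higher, and 13 of the 19 stood under 74.8 CPM in sham. The intermediate filament gene Vim stood at 1165 CPM in sham and 13875 CPM at 3 dpi, 11.9-fold higher [10.7 to 13.3]. Vim ranged from 0 to 30.4 per 10,000 in sham members (median 11.2) and from 51.8 to 270 at 3 dpi (median 135). Every 3 dpi member thus stood above every sham member, which held for 0.156% of all measured genes (5 of 3212) and, in the list of 30, for Vim. Vim was also present in other groups at 3 dpi, at 6264 CPM in endothelial cells and 1500 CPM in phagocytes.

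The small heat shock protein gene Hspb1 stood at 187 and 5360 CPM, 28.6-fold higher, with the 3 dpi members at 0 to 208 per 10,000 (median 28.0), and at 3 dpi reached 991 CPM at most in the other marker groups. Gfap, the intermediate filament of astrocytes, stood at 82.0 and 1174 CPM, 14.3-fold higher, yet 3 of 11 members at 3 dpi had 0 UMIs and 1 held 54.8% of them. The neural progenitor filament gene Nes stood at 11.7 and 247 CPM and the membrane protein gene Emp1 at 14.6 and 247 CPM. Timp1, an inhibitor of matrix proteases, had 0 UMIs in sham and 194 CPM at 3 dpi, at least 22.1-fold higher. S100a10, a partner of annexin, stood at 190 and 1062 CPM, 5.58-fold higher.

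Of 11 complement genes with a UMI, 6 were higher and 0 lower, against 7.37% of all genes higher, and the 6 stood at 0 to 26.3 CPM in sham. The 6 include C1qb and C1qc. The selection rule left out barcodes high in C1qa, C1qb and C1qc, so it limited the levels of these genes in both libraries. Their values are therefore a description of the chosen barcodes, and the share of all genes is no fair measure for them. C4b, which encodes a component of the classical pathway, had 0 UMIs in sham and 217 CPM at 3 dpi, at least 24.7-fold higher, and Serping1, the inhibitor of the first component, stood at 2.93 (1 UMI) and 179 CPM. Serping1 reached 34.7 CPM at most in the other marker groups at 3 dpi. The central component gene C3 stood at 2.93 (1 UMI) and 142 CPM, with 3 members holding a UMI. C1qb stood at 26.3 and 74.8 CPM, under its level in oligodendrocytes (107 CPM) and endothelial cells (107 CPM) at 3 dpi. C1qc stood at 26.3 and 120 CPM, with a log2 ratio of -0.0509 in female-derived members against 1.83 in all. Serpina3n, an acute-phase protease inhibitor, had 0 UMIs in sham and 105 CPM at 3 dpi, near the 89.6 CPM of phagocytes and far under the 4258 CPM of oligodendrocytes.

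The largest ratio on the ependymal side was in Nupr1, a stress-induced chromatin regulator. It had 0 UMIs in sham and 1151 CPM at 3 dpi, at least 131-fold higher, with 12.8 to 81.7 CPM in the other marker groups. Tagln, an actin-binding protein of smooth muscle, stood at 14.6 and 1069 CPM, with 7 of 11 members holding a UMI and 1 of them 56.6% of the UMIs. Hbegf, an EGF-family growth factor, stood at 146 and 964 CPM, 6.59-fold higher, with a UMI in 11 of 11 members at 3 dpi. Spp1 (0 and 1017 CPM) was as high in oligodendrocytes (1245 CPM) and precursors (1104 CPM). The largest decreases, beside Ccdc153 and Rarres2, were in the huntingtin-associated gene Hap1 (181.5 CPM and 0 UMIs, at least 8.09-fold lower), Clec3b (354 and 14.95 CPM), the calmodulin-binding peptide gene Pcp4 (416 and 22.4 CPM) and the kinetochore gene Nuf2 (225 and 14.95 CPM). The prostaglandin synthase gene Ptgds (539 CPM in sham) had one of the lowest ratios too, and stood lower in sham members than in endothelial cells (1478 CPM).

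Factors of cell identity mostly lay within 2-fold. Sox9 stood at 700 and 994 CPM and Sox2, a neural progenitor factor, at 1077 and 680 CPM, both within 2-fold. Of 21 glial and progenitor transcription factors, 2 were higher and 2 lower, near the shares of all genes (7.37% and 13.8%). One of the lower was Nkx6-1, a factor that patterns the ventral cord (424 and 149.5 CPM, 2.84-fold lower). Of 18 oxidative phosphorylation genes 0 were called, and of 20 dissociation and immediate early genes 2 were higher and 3 lower, with Fos at 4897 and 4022 CPM. Of 16 metallothionein and oxidative stress genes 5 were higher and 1 lower, and the metallothionein Mt1 stood at 6469 and 5861 CPM.

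In the remaining lists on the ependymal side, higher and lower genes numbered 3 and 2 of 21 for astrocyte homeostatic genes, 0 and 2 of 12 for glutamate and potassium handling, 7 and 3 of 20 for extracellular matrix, 3 and 1 of 14 for growth factors, 2 and 1 of 15 for interferon and MHC class I genes, 3 and 3 of 15 for glycolysis and 3 and 1 of 19 for cholesterol and lipid transport. The 96 ribosomal protein genes took 9.54% of UMIs in sham and 15.4% at 3 dpi. The part of that difference, and of depth, in these results was not tested.

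**Figure D2:**
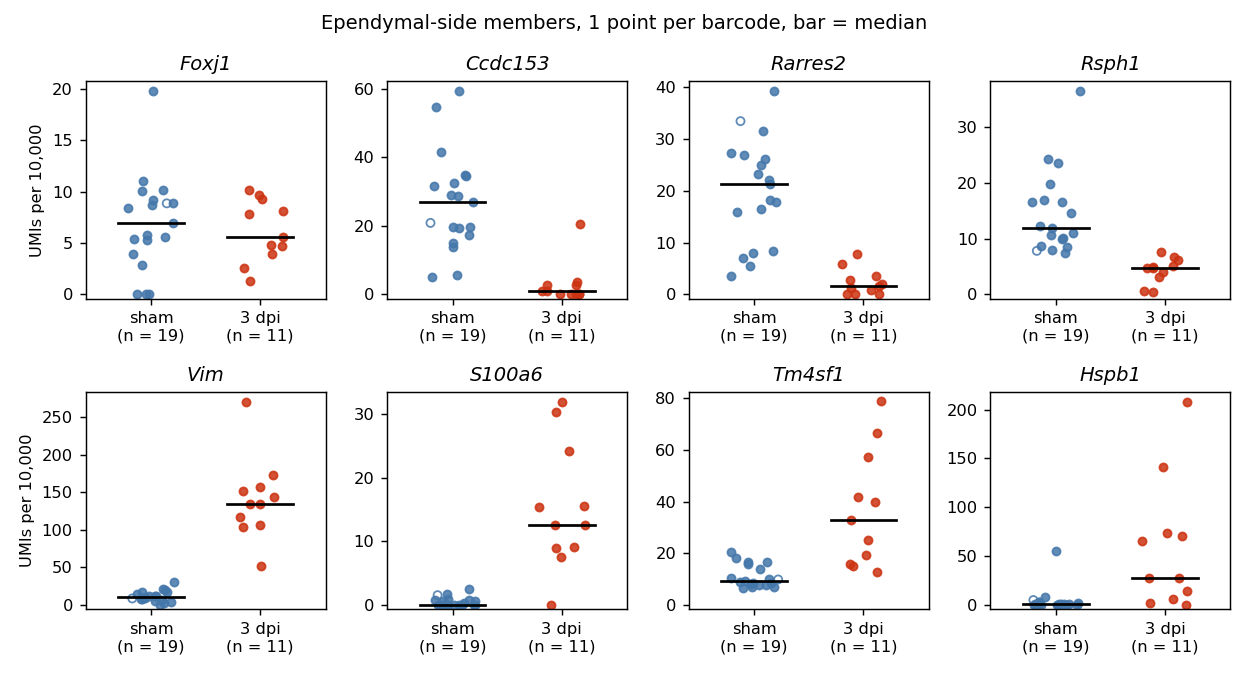
UMIs per 10,000 of 8 genes in each ependymal-side member (19 sham, 11 at 3 dpi), with the bar at the median and an open symbol for the sham member led by oligodendrocyte markers. Foxj1 overlaps between libraries, Ccdc153, Rarres2 and Rsph1 are lower at 3 dpi, and Vim does not overlap, at 51.8 or more at 3 dpi and 30.4 or less in sham.

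On the astrocyte side the small sham sum allowed few genes to be measured: 521 genes at 401 CPM or more with all members, of which 40.9% were called higher and 29.6% lower (median log2 ratio 0.50). Among the astrocyte-led members 255 genes at 734 CPM or more were measured, of which 53.7% were higher and 25.9% lower (median 1.32). Of the 11237 genes with a UMI, over which lists are counted, 49.2% were higher and 21.5% lower (median 0.76). There 1 sham UMI was worth 73.3 CPM, so the call of a low gene can rest on 1 UMI. Values below are for the astrocyte-led members unless all astrocyte-side members are named. Over the 2083 genes at 50 CPM or more in both libraries, the median log2 ratio without added CPM was -0.12. Scaling by the median of ratios removes this offset and so raises the log2 ratios slightly.

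Astrocyte-led members at 3 dpi held less RNA of many transporter and homeostatic genes. The water channel gene Aqp4 stood at 4327 CPM in sham and 2316 CPM at 3 dpi, 1.87-fold lower, and Agt, the angiotensin precursor, at 5061 and 219 CPM, 23.1-fold lower; these 2 genes chose the members. Agt ranged from 29.6 to 68.5 per 10,000 in sham (median 55.5) and from 0 to 26.4 at 3 dpi (median 1.23). Of 12 genes of glutamate and potassium handling, 7 were lower and 0 higher (median log2 ratio -1.33), against 21.5% of all genes lower. The glutamate transporter gene Slc1a2 stood at 4034 and 1312 CPM, 3.08-fold lower, with members at 13.02 to 102 per 10,000 (median 24.2) in sham and 3.90 to 35.3 (median 12.9) at 3 dpi, which overlapped. The GABA transporter gene Slc6a11 stood at 1467 and 83.3 CPM, and Slc7a10 at 1394 and 156 CPM. The sodium bicarbonate cotransporter gene Slc4a4 (1907 and 973 CPM) and the pump subunit gene Atp1b2 (2787 and 1400 CPM) lay just within 2-fold.

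Other genes of this list had fewer UMIs: Glul (glutamine synthetase) at 587 and 333 CPM, and the potassium channel gene Kcnj10 at 440 and 208 CPM. In female-derived members alone, 3 in sham, the log2 ratio of Slc7a10 was 3.93 against -2.54 in all astrocyte-side members, and that of Glul was 4.95 against -1.63. Those 3 sham members held only 2483, 1982 and 1278 UMIs in all, so the female ratios rest on very few sham UMIs of either gene.

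Of 23 gap junction and homeostatic genes, 14 were lower and 2 higher (median -1.65), against 21.5% and 49.2% of all genes, and 12 of the 14 stood under the filter level at 3 dpi. The gap junction gene Gja1 (connexin 43) stood at 2127 and 224 CPM, 9.50-fold lower, with members at 8.46 to 32.5 per 10,000 (median 23.5) in sham and 0 to 19.8 (median 1.66) at 3 dpi. Most 3 dpi members stood below the lowest sham member in Gja1. Cldn10, a tight junction claudin, stood at 1760 and 57.3 CPM, 30.8-fold lower. Its members did not overlap, at 9.37 per 10,000 or more in sham and 2.49 or less at 3 dpi, which held in that direction for 1.18% of all measured genes (3 of 255). The aldolase gene Aldoc (3154 and 422 CPM, 7.48-fold lower), the receptor gene Ntsr2 (1540 and 125 CPM, 12.3-fold lower), Pla2g7 (3007 and 146 CPM, 20.6-fold lower) and the matricellular gene Sparcl1 (6968 and 729 CPM, 9.56-fold lower) were among the 14.

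The chaperone gene Clu (3154 and 5298 CPM), the calcium-binding S100b (587 and 848 CPM) and the peptidase gene Cpe (733.5 and 1056 CPM) stood above sham, within 2-fold. Clu passed 2-fold with all astrocyte-side members (2.41-fold higher). The lipoprotein gene Apoe stood at 31979 CPM in sham and 4388 CPM at 3 dpi, 7.29-fold lower, at 93.7 to 581 per 10,000 (median 254) in sham and 11.7 to 182 (median 45.9) at 3 dpi. At 3 dpi phagocytes held more Apoe (16356 CPM) than the members did. The proteoglycan gene Bcan (brevican) stood at 1540 and 26.0 CPM, 59.2-fold lower, with a UMI in 7 of 7 sham and 3 of 17 3 dpi members. The sterol synthesis gene Msmo1 (880 and 172 CPM) and the transcriptional regulators Id2 (1614 and 276 CPM) and Id3 (1027 and 505 CPM) were lower as well.

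Of 27 reactivity genes with a UMI, 21 were higher and 1 lower (median log2 ratio 3.22), against 49.2% of all genes higher. That median rests on genes with no sham UMI: with the 14 such genes set to 3 UMIs in sham it was -0.10. Vim had 4 UMIs in sham (293 CPM) and stood at 9889 CPM at 3 dpi, 33.7-fold higher [13.1 to 124], with members at 0 to 15.7 per 10,000 (median 0) in sham and 18.0 to 270 (median 70.2) at 3 dpi. Vim members did not overlap, which held in that direction for 2.35% of all measured genes (6 of 255). Hspb1 stood at 293 CPM, from 1 sham member, and 8405 CPM, S100a10 at 293 and 2977 CPM, and Timp1 at 73.3 (1 UMI) and 1234 CPM.

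Gfap stood at 3154 CPM in sham and 5408 CPM at 3 dpi, 1.72-fold higher [1.26 to 2.38]. Its members ranged from 0 to 76.5 per 10,000 (median 31.3) in sham and from 15.3 to 119 (median 43.7) at 3 dpi, so the libraries overlapped widely. With all astrocyte-side members Gfap stood 2.81-fold higher (log2 ratio 1.49), and in female-derived members its log2 ratio was -0.28. Of list genes too low to be measured, Nes had 0 UMIs in sham and 411 CPM at 3 dpi, at least 1.87-fold higher, and Serpina3n 0 and 281 CPM, at least 1.28-fold higher. Lcn2, a secreted lipocalin, had 0 UMIs in sham and 338 CPM at 3 dpi, of which 1 member held 70.8%. C3 stood at 367 CPM (5 UMIs) and 208 CPM (log2 ratio -0.79).

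Some genes higher at 3 dpi were shared by the ependymal side. S100a6 stood at 733.5 and 11398 CPM, 15.5-fold higher, with members at 0 to 35.3 per 10,000 (median 4.03) in sham and 3.30 to 225 (median 80.5) at 3 dpi, above the 2201 CPM of neutrophils, the highest of the other marker groups. S100a11 had 0 UMIs and 1462 CPM, at least 6.65-fold higher, and Tm4sf1 stood at 220 and 1848 CPM, 8.40-fold higher. Hbegf stood at 147 and 1270 CPM, 8.66-fold higher [2.37 to 71.9]. The matrix glycoprotein gene Fn1 had 0 UMIs and 843 CPM, but phagocytes (1110 CPM) and endothelial cells (1064 CPM) held more.

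The highest ratios among the astrocyte-led members were in Tagln and Lgals3. Tagln had 0 UMIs in the 7 sham members and 4846 CPM at 3 dpi, at least 22.0-fold higher. A UMI was found in 14 of 17 members, at 0 to 112 per 10,000 (median 11.4), and the other marker groups held 45.0 CPM at most. Those groups did not include pericytes, smooth muscle cells or fibroblasts. Without the 2 members that Tagln would place among pericytes, Tagln stood at 3207 CPM, with a UMI in 12 of 15. Of the 10 pericyte or smooth muscle markers, 4 had a UMI in the astrocyte-led members at 3 dpi, and Tagln made up 4846 of the 4970 CPM of that list. Igfbp2, an insulin-like growth factor binding protein, had 0 UMIs and 1686 CPM, at least 7.66-fold higher, with a UMI in 12 of 17 members and 15.6 CPM at most in the other groups. Ependymal-side members held 37.4 CPM of Igfbp2 at 3 dpi. The galectin gene Lgals3 had 0 UMIs and 2373 CPM, with 2914 CPM in phagocytes.

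Of 16 metallothionein and oxidative stress genes, 9 were higher and 3 lower (median 1.11), near the share of all genes higher (49.2%). The metallothionein Mt1 stood at 10929 and 21610 CPM, 1.98-fold higher and so just under the call, while Mt2 (2127 and 4788 CPM), Mt3 (2200 and 5772 CPM), the peroxiredoxin gene Prdx6 (1980 and 5179 CPM) and Gpx1 (1 UMI, 73.3 CPM, and 1853 CPM) passed it. Without the 2 members named above Prdx6 stood at 3804 CPM and did not pass. The lipid-binding gene Fabp7 of immature glia stood at 293 and 1181 CPM, 4.03-fold higher. Of 18 oxidative phosphorylation genes 6 were higher, and of 15 glycolysis genes 8 were, against 49.2% of all genes. Some of the largest ratios with all astrocyte-side members came from single members that markers of another class led: 1 member held 96.1% of the UMIs of Mgp and 97.6% of those of Dcn, both matrix genes, at 3 dpi, and 1 held 96.9% of those of Ptgds in sham. These genes are given no comparison.

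Depth and the share of ribosomal protein genes differed together with these results. The median astrocyte-led member held 1982 UMIs in sham and 10318 at 3 dpi, and the 96 ribosomal protein genes took 2.10% and 12.7% of UMIs. The part of both in the results was not tested.

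**Figure D3:**
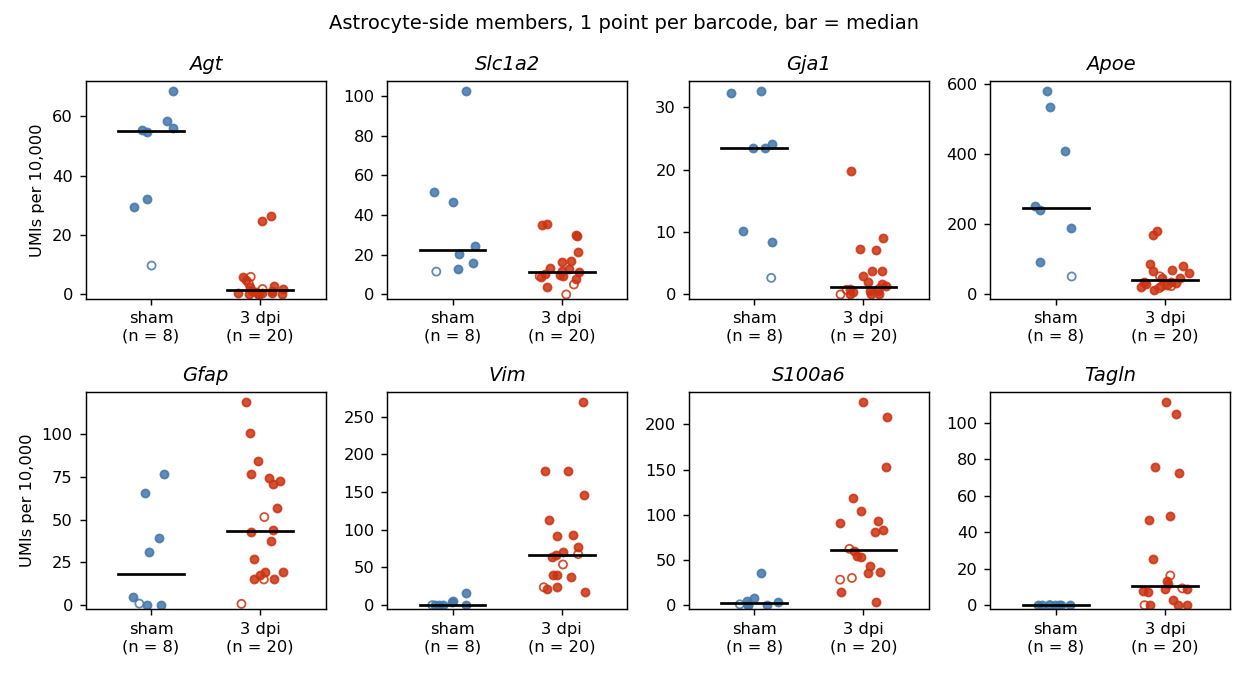
UMIs per 10,000 of 8 genes in each astrocyte-side member (8 sham, 20 at 3 dpi), with the bar at the median over all of them and open symbols for the 4 members led by markers of another class. Agt, Gja1 and Apoe are lower at 3 dpi, Gfap overlaps, Vim lies at 15.7 or less in sham and 18.0 or more at 3 dpi, and Tagln is at 0 in all sham members.

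Both sides can be set side by side on the same lists. Over genes with a UMI, those of glutamate and potassium handling had a median log2 ratio of -0.40 in ependymal-side and -1.33 in astrocyte-led members, homeostatic genes one of -0.15 and -1.65, and reactivity genes one of 1.62 and 3.22, beside -0.25 and 0.76 over all genes. With genes at 0 in 1 library set to 3 UMIs there, the reactivity medians were 1.62 and -0.10. The genes of each list with a UMI differ between the sides, and the differences between the sides were not tested.

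**Figure D4:**
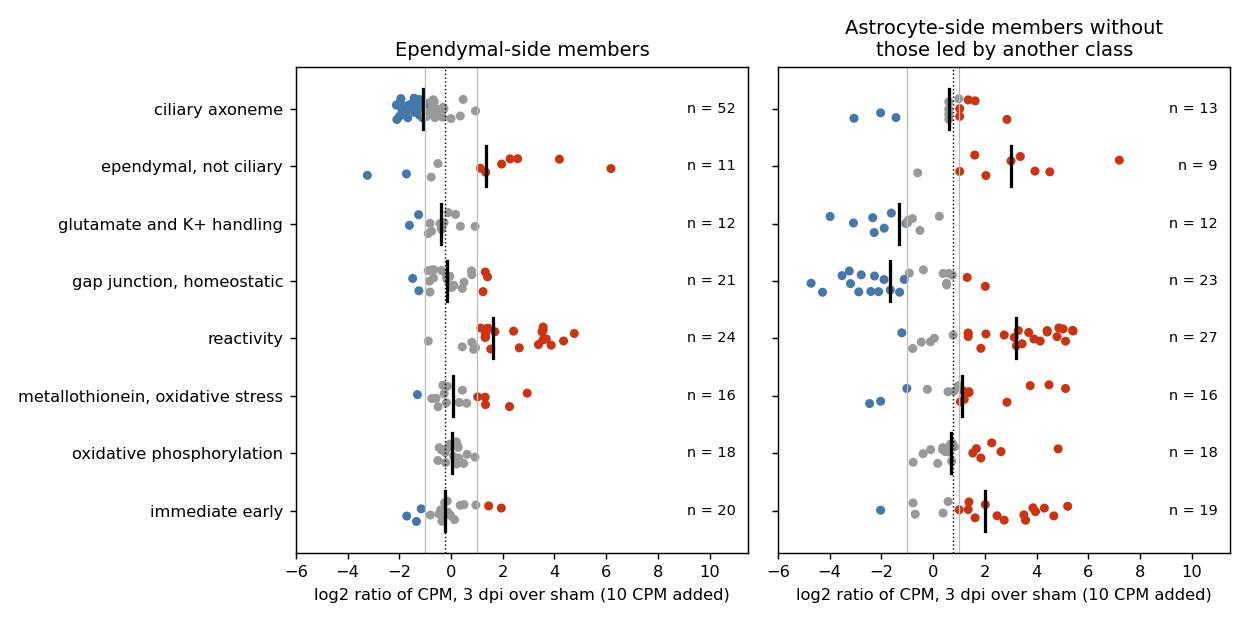
Log2 ratio of CPM, 3 dpi over sham with 10 CPM added, of each gene with a UMI in 8 lists in ependymal-side members (left) and astrocyte-led members (right), with red for at least 2-fold higher, blue for at least 2-fold lower, a thick bar at the list's median, grey lines at 2-fold and a dotted line at the median of all genes with a UMI (-0.25 and 0.76). Axoneme genes (30 of 52) lie below the lower line on the left, homeostatic genes (14 of 23) on the right, and reactivity genes above the upper line on both sides (19 of 24 and 21 of 27).

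The 17 astrocyte-led members at 3 dpi varied among themselves. The summed reactivity list ranged from 127 to 577 per 10,000 and the homeostatic list from 45.5 to 317. Across the 17, the lists were inversely related (Spearman's rho -0.51, Pearson's r -0.48), and both went with depth, the reactivity list upward (rho 0.43) and the homeostatic list downward (rho -0.55). Tagln went with the reactivity list (rho 0.53, r 0.60) and with depth (rho 0.61, r 0.66). Without the 2 members that Tagln would place among pericytes, rho over the 15 was -0.43 between the lists, 0.41 for Tagln with the reactivity list and 0.49 for Tagln with depth. These are descriptions over cells of 1 library. Depth moved with each of them, and its part was not tested.

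Proliferation genes were found in astrocyte-side members at 3 dpi. Summed over 13 genes, among them the S- and mitotic-phase genes Mki67, Top2a, Cdk1, Ccnb1 and Rrm2, the astrocyte-led members held 424 UMIs at 3 dpi. That is 22.1 per 10,000 [20.02 to 24.3], against 0 UMIs in sham, or 0 per 10,000 [0 to 2.71]. At 3 dpi 8 of the 17 had at least 10 such UMIs, with 92, 84 and 68 in the highest. Among the 8 was the called doublet of 11027 UMIs with monocyte or macrophage markers, which held 63 of the 424. The median depth of those 8 was 15310.5 UMIs against 5268 in the others. Deeper members reach a raw count of 10 more easily, so this difference was set in part by the cut. A member of 1150 UMIs with 60.9 per 10,000 fell outside the 8, and a member of 16276 UMIs with 9.83 per 10,000 was among them. With each member thinned to 1000 UMIs, 9 of 17 at 3 dpi and 0 of 7 in sham had a UMI of these genes, against 11 and 0 without thinning. Other barcodes of the 3 dpi library held 12.1 per 10,000.

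The ependymal side held 57 such UMIs in sham (1.67 per 10,000 [1.26 to 2.16]) and 40 at 3 dpi (2.99 [2.14 to 4.07]). In each library 1 member held most of them, 40 in sham and 34 at 3 dpi. Tagln stood at 10 per 10,000 or more in 9 of the 17 astrocyte-led members at 3 dpi, and 5 of these 9 were among the 8 with at least 10 proliferation UMIs. Both Tagln and the raw count of proliferation UMIs went with depth, so this overlap is a description only.

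**Figure D5:**
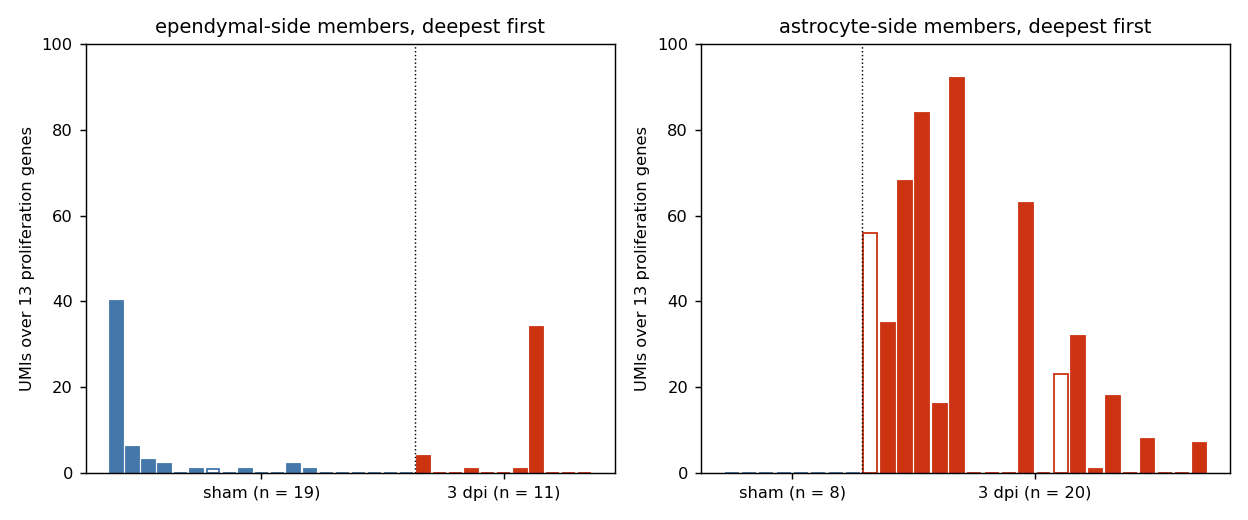
UMIs summed over 13 proliferation genes in each member, 1 bar per member from the deepest to the shallowest within each library, for the ependymal side (left) and the astrocyte side (right), with open bars for members led by markers of another class. On the ependymal side 1 member in each library stands out, at 40 and 34 UMIs; on the astrocyte side all 8 sham members are at 0 and 10 of 20 at 3 dpi reach 10 or more.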

How the data were processed

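The authors deposited 1 table of UMI counts per gene symbol and barcode for each of 2 libraries. Per the labels' protocols these are 10X Chromium 3′ v.3 libraries. Per the submitters' processing notes, Cell Ranger and Seurat were used, with no version or role, and GRCh38, a human build, is named although the symbols are those of mouse: 22164 of 22480 were found among the mouse symbols of the reference. Filters on barcodes are not given in the sources used here, and 0 mitochondrial genes were listed. The libraries held 76889038 (sham) and 149291783 (3 dpi) UMIs, with medians of 5522 and 9117 per barcode.

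Members, marker lists, gene lists and rules were chosen with earlier results of these data known. UMIs were summed over members per library, divided by their total (CPM) and compared as log2 ratios with 10 CPM added, called at 2-fold. Lists were counted over their genes with a UMI, a choice made after the data were seen. Genes named are those of the selection rule, of the marker and gene lists, and the 15 with the highest or lowest ratios or fold over other barcodes, and some of these are not reported here. The doublet score was the share of simulated doublets among 60 neighbours on 30 components, with 8.11% of sham and 10.9% of 3 dpi barcodes called, and doublets were kept. Marker groups of other cells were oligodendrocytes, phagocytes, endothelial cells, precursors (Pdgfra and Cspg4) and neutrophils (S100a8 and S100a9). No group was made for pericytes, smooth muscle cells, fibroblasts or monocytes. Intervals are exact Poisson, Clopper-Pearson or conditional ones at 95%. The computations were checked on simulated data and used Python 3.11.15, numpy 2.4.6, scipy 1.17.1, scikit-learn 1.9.0 and matplotlib 3.10.9.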

Additional observations from a re-analysis of the deposited data

Results flagged for a closer look

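Aldoc, the aldolase of astrocytes, differed in direction between the sides. Its log2 ratio, 3 dpi over sham, was 1.24 on the ependymal side (146 and 359 CPM) and -2.72 on the astrocyte side (2606 and 386 CPM). The difference was not tested, since each library is 1 sample.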

How the results depend on the processing

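Each library is 1 sample, and members are few, so the limits are counting error, single deep members and depth. In the female-derived members the sham share was 0.160% and 1595 genes were higher over all members (1021 in all). On the ependymal side (303 higher, 539 lower) 471 were higher in male-derived and 849 in female-derived members, 472 with the mean over members, 987 higher and 1845 lower with no filter on low values, and 193 and 325 with the filter on the mean of both libraries. On the astrocyte side (213 and 154) 3983 were higher and 2689 lower with no filter, and 70 were lower with the filter on the mean. The shares and counts were otherwise within 1.5 times or within counting error.

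The log2 ratios of 221 named genes on the ependymal side stayed within the counting interval in 3324 recomputations and left it in 208, and 4 reversed: in female-derived members Armc3 (0.61), C1qc (-0.0509) and Cfap43 (0.66), and in male-derived members Txnrd1 (-0.32). For 103 genes on the astrocyte side the numbers were 1363 and 167, and 15 reversed, 9 in female-derived members: Aplp1 (0.11), Frmd4a (3.33), Gfap (-0.28), Glul (4.95), Mbp (1.41), Qdpr (0.056), Sept4 (2.29), Slc7a10 (3.93) and Tnr (1.199). Without called doublets Mbp was 0.57 and Tnr 0.58, without members led by another class 0.64 and 0, and with Tagln counted for these 0.49 and 0. The cause was not tested. The side comparisons, their settings, and the settings with a threshold of 3 per 10,000, a filter on the mean, without members led by another class and without the deepest member were chosen after seeing the data. Male-derived members were too few on the astrocyte side (1 in sham) and were not run. No paired analysis was possible because each group is 1 library.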
